A study of Mus musculus with 2 samples.

Results

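The miRNAs described here are the muscle miRNAs mmu-miR-1a-3p, mmu-miR-206-3p, mmu-miR-133a-3p, mmu-miR-133b-3p, mmu-miR-499-5p and mmu-miR-208a-3p (the species prefix mmu, for mouse, is left out below). They were chosen by name as miRNAs that skeletal or cardiac muscle makes, by a rule that used no measured value, although earlier results of these data were known when the choice was made. They are 6 of the 1881 mouse miRNAs on an Agilent miRNA array, with 12 of its 4415 probes and 180 of its 56430 miRNA spots. RNA came from exosomes, small vesicles that cells release, isolated from the blood of 6-week-old female C57BL/6 mice with subcutaneous Lewis lung carcinoma (LLC). LLC is a mouse lung cancer line, and every mouse received 1000000 LLC cells that carry luciferase. The LLC group received these cells alone, and the MSC+LLC group received them together with bone marrow mesenchymal stem cells (BMSCs) purchased from C57BL/6 mice. The labels call the fluid serum, the methods call it plasma, and it was taken when tumours averaged 200 mm3. Each group was 1 array labelled from 100 ng of RNA. How many mice were pooled, and how many BMSCs were injected, are not given in the sources used here. With 1 array per group there was no replicate and no test, so each difference below is one between 2 arrays.

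A miRNA is a short RNA that guides the Argonaute protein to messenger RNAs, which are then repressed, and it finds them mainly through its seed, bases 2 to 8. MiR-1 and miR-206 share a seed and favour the differentiation of muscle precursors. The miR-133 miRNAs are made from the same primary transcripts as miR-1 or miR-206 and are known for effects on proliferation and on cardiac growth. MiR-208a and miR-499 lie within myosin heavy chain genes and take part in the choice of myosin isoform in heart and slow muscle. MiR-206 is largely restricted to skeletal muscle, while miR-208a is largely restricted to heart. Several of these miRNAs are used in blood as markers of muscle or heart injury.

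The mature sequences from RefSeq (GRCm38.p6) are given below, 5′ to 3′, for the members that its table holds and for the other arm of miR-208a, whose signal differed from that of the cardiac guide arm. MiR-1a-3p and miR-133a-3p are named only. Capitals mark the seed.
miR-206-3p: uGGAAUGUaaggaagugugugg
miR-133b-3p: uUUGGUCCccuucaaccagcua
miR-499-5p: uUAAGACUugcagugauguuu
miR-208a-3p: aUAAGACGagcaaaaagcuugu
miR-208a-5p: gAGCUUUUggcccggguuauac

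The seeds of miR-499-5p and miR-208a-3p were equal in 6 of 7 bases, counted from the seed's start. In the RefSeq table the seed of miR-208a-3p was also that of its paralogue miR-208b-3p, which was detected on neither array. The seed of miR-206-3p was shared with miR-6349, detected on the LLC array only, and with miR-6382, detected on neither. On the genome, miR-206-3p lies at chr1:20679055-20679076 and miR-133b-3p at chr1:20682834-20682855, both on the plus strand. Their precursors are 3686 bases apart, and the span of the long non-coding RNA gene Lincmd1 covers both. Mir1a-1 and Mir133a-2, precursor genes of miR-1a and miR-133a on chromosome 2, are 9254 bases apart within the span of Mir1a-1hg. MiR-499-5p lies at chr2:155622893-155622913 on the plus strand, within the span of the myosin gene Myh7b. MiR-208a-3p lies at chr14:54949072-54949093 on the minus strand, within the span of Myh6, which encodes the alpha myosin heavy chain of the heart.

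The MSC+LLC array was far dimmer than the LLC array. Among probes that both arrays detected, the 75th percentile was 2883 intensity units for LLC but 250.3 for MSC+LLC, an 11.52-fold difference. Spike-in RNAs added before labelling differed by a mean log2 ratio of -1.32 (MSC+LLC over LLC), and those added before hybridization by 0.038. Detection of a probe required that over 50% of its kept spots stood well above background. Unless another scaling is named, each array was divided by its 75th percentile above, which added 3.53 to each log2 ratio. No spot was saturated. Both arrays lay on 1 slide, so slide position and group cannot be told apart. In a bulk sample of vesicles, fewer vesicles from a tissue and less of a miRNA per vesicle cannot be told apart either.

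Of the 6 muscle miRNAs, 5 were detected on the LLC array, where 26.7% of all miRNAs were detected. On the MSC+LLC array 4 were detected, against 13.7% of all miRNAs. Relative to the probes detected on both arrays, the 3 miRNAs miR-133a-3p, miR-133b-3p and miR-206-3p were each more than 2-fold higher in the MSC+LLC group. MiR-1a-3p was level with the median of the miRNAs measured on both arrays. MiR-499-5p was seen on the LLC array only, and miR-208a-3p on neither. Of the 240 miRNAs that both arrays measured, 27.1% were 2-fold or more higher, and 11.2% were 2-fold or more lower. The median log2 ratio of the 4 measured muscle miRNAs was 1.12, beside 0.15 over all 240. These directions hold relative to the scaling, which used only probes that the dimmer array also detected. With the 75th percentile of all probes, miR-133a-3p was at 0.066, miR-133b-3p at -0.041 and miR-206-3p at -0.15. Before scaling all 4 were at least 2-fold dimmer on the MSC+LLC array, as were 90.4% of the 240.

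**Figure D1:**
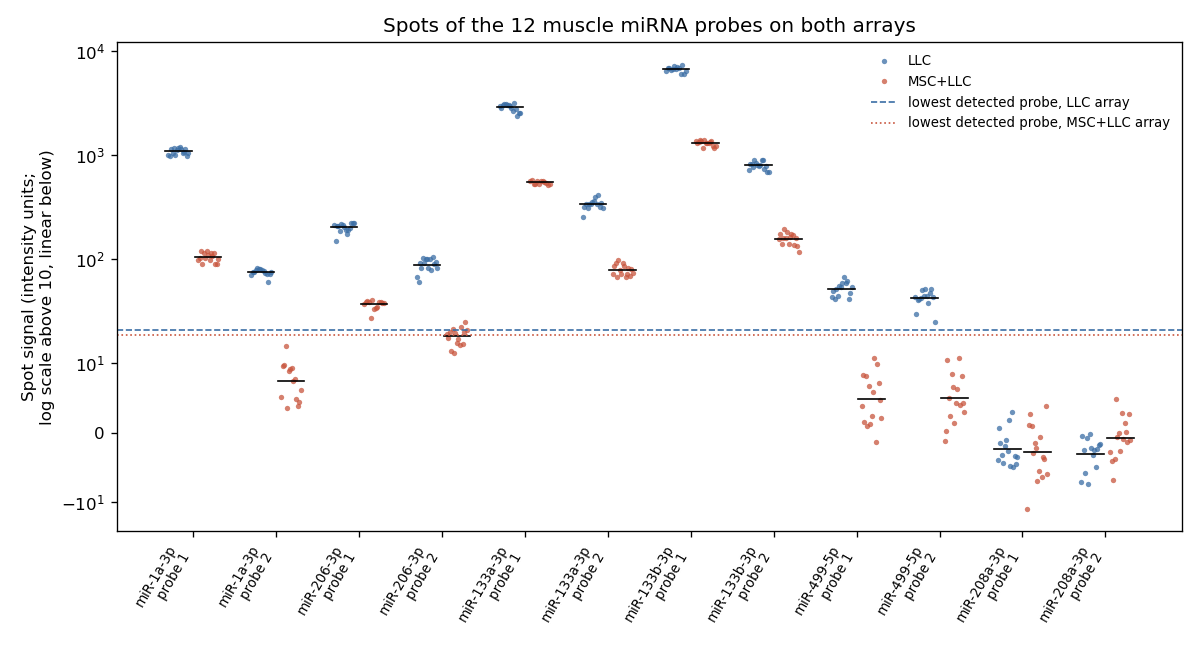
Spot signal in intensity units (vertical axis, logarithmic above 10 and linear below) for each of the 12 probes of the muscle miRNAs, with LLC spots in blue, MSC+LLC spots in red, the mean as a black bar, and the lowest detected probe of each array as a dashed (LLC) and a dotted (MSC+LLC) line. Spots of the 10 probes of miR-1a, miR-206, miR-133a, miR-133b and miR-499 are higher on the LLC array without overlap, and both probes of miR-208a-3p lie around 0 on both arrays.

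Every kept LLC spot lay above every kept MSC+LLC spot for 10 of the 10 muscle probes detected on at least 1 array. This was also so for 91% of the 1001 probes of all miRNAs detected on at least 1 array, so the count is near the background and is not a result about the muscle miRNAs. The paragraphs below give how much dimmer each one was.

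MiR-1a-3p, abundant in heart and skeletal muscle, was measured on both arrays by its brighter probe alone. On the LLC array the spots of that probe ran from 983 to 1196 intensity units with a median of 1074, and the mean was 1086 ± 72.5 (SD over 15 spots). In the MSC+LLC group they ran from 89.2 to 119.7 with a median of 103, and the mean was 105 ± 10.5 (SD over 15 spots). The probe was thus 10.4-fold dimmer on the MSC+LLC array, close to the 11.52-fold of the probes that both arrays detected. After scaling, the log2 ratio was 0.15 with a spot-to-spot SD of 0.17, so that miR-1a-3p did not stand apart from 0 by more than its technical spread. Exactly 50% of the 240 miRNAs had a lower ratio. The dimmer probe averaged 75.1 ± 5.42 for LLC and 7.45 ± 3.05 for MSC+LLC (SD over 14 spots each), and in the latter none of its kept spots was well above background.

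MiR-206-3p, the skeletal muscle relative of miR-1, also rested on 1 probe. Its brighter probe ran from 151 to 224 on the LLC array with a median of 209.5, and the mean was 202 ± 20.5 (SD over 15 spots). In the MSC+LLC group it ran from 27.4 to 40.5 with a median of 38.0, and the mean was 36.7 ± 3.53 (SD over 13 spots). The probe was 5.50-fold dimmer on the MSC+LLC array, and the scaled log2 ratio was 1.07 (2.09-fold higher), with 0.20 as the SD over spots. The dimmer probe gave 88.5 ± 13.2 and 18.3 ± 3.55 (SD over 15 spots on each array). It missed the detection rule on the MSC+LLC array, where 7 of its 15 spots were well above background. MiR-206-3p was thus near the lower limit of the MSC+LLC array, whose lowest detected probe was at 18.8 intensity units.

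MiR-133a-3p, made together with miR-1a, was measured by both of its probes. The brighter one ran from 2392 to 3206 on the LLC array with a median of 2957, and the mean was 2872 ± 240.5 (SD over 15 spots). In the MSC+LLC group it ran from 519 to 573 with a median of 549.9, and the mean was 546 ± 18.2 (SD over 12 spots). The other probe averaged 339 ± 39.9 (SD over 14 spots) for LLC, and for MSC+LLC it averaged 79.3 ± 9.72 (SD over 15 spots). The probes were 5.26-fold and 4.27-fold dimmer on the MSC+LLC array, with scaled log2 ratios of 1.13 and 1.43. Their mean was 1.28 (2.43-fold higher, SD over spots 0.20), and 77.1% of the 240 miRNAs had a lower ratio.

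MiR-133b-3p, made together with miR-206, is nearly identical to miR-133a-3p in sequence, so their probes may not tell them apart and the values of both are uncertain for a given member. Its brighter probe ran from 5979.55 to 7420.36 on the LLC array with a median of 6762, and the mean was 6709 ± 430.1 (SD over 13 spots). In the MSC+LLC group it ran from 1166 to 1396 with a median of 1318, and the mean was 1304 ± 75.2 (SD over 15 spots). The other probe gave 797 ± 69.9 and 157 ± 20.5 (SD over 15 spots on each array). The probes gave scaled log2 ratios of 1.16 and 1.18, with a mean of 1.17 (2.26-fold higher) and a spot-to-spot SD of 0.18. For miR-133b-3p 74.6% of the 240 miRNAs had a lower ratio, and for miR-206-3p 73.3%.

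No scaling by a constant changes the distance between members. The log2 ratio of miR-133a-3p was 1.13 above that of miR-1a-3p (spot-to-spot SD 0.26), that of miR-133b-3p 1.02 above it (SD 0.25) and that of miR-206-3p 0.91 above it (SD 0.27). Each of these 3 gaps was more than 3 times its spot-to-spot SD. That SD leaves out differences between probes of the same miRNA. The probes of miR-133a-3p gave 1.13 and 1.43, while miR-1a-3p and miR-206-3p rested on 1 probe each. Between the other three the gaps were 0.11 (miR-133a-3p over miR-133b-3p, SD 0.27), 0.21 (miR-133a-3p over miR-206-3p, SD 0.28) and 0.11 (miR-133b-3p over miR-206-3p, SD 0.27), all smaller than their SD. MiR-1a-3p was thus the lowest of the 4, and the order of the upper 3 was not resolved. The upper 3 also changed order with the processing. After quantile normalization miR-133a-3p was at 1.27, miR-133b-3p at 1.01 and miR-206-3p at 0.69, while after normexp background correction miR-206-3p was the highest at 1.79, with miR-133a-3p at 1.36 and miR-133b-3p at 1.11. The 3 gaps to miR-1a-3p stayed positive in each of the 18 alternatives computed. Scalings by a constant, and no scaling, are among these 18 and left the gaps unchanged by construction. The deposited values likewise repeat the gaps of the summed signal. Over all alternatives the gap ran from 0.62 to 1.13 for miR-133b-3p, from 0.69 to 1.31 for miR-206-3p and from 0.88 to 1.27 for miR-133a-3p. Since the SD is over spots of 1 array, it says nothing of the spread between mice.

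Both arrays carry a probe at the same positions, so a ratio can be taken position by position. For miR-1a-3p the scaled log2 ratio ran from -0.15 to 0.29 over 15 positions. For miR-206-3p it ran from 0.56 to 1.29 over 13 positions, of which 9 were at least 1. The brighter and the dimmer probe of miR-133a-3p ran from 0.98 to 1.26 over 12 positions and from 0.96 to 1.73 over 14. Those of miR-133b-3p ran from 0.92 to 1.40 over 13 positions and from 0.97 to 1.38 over 15. The highest position of miR-1a-3p was thus below the lowest of each other measured member.

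**Figure D2:**
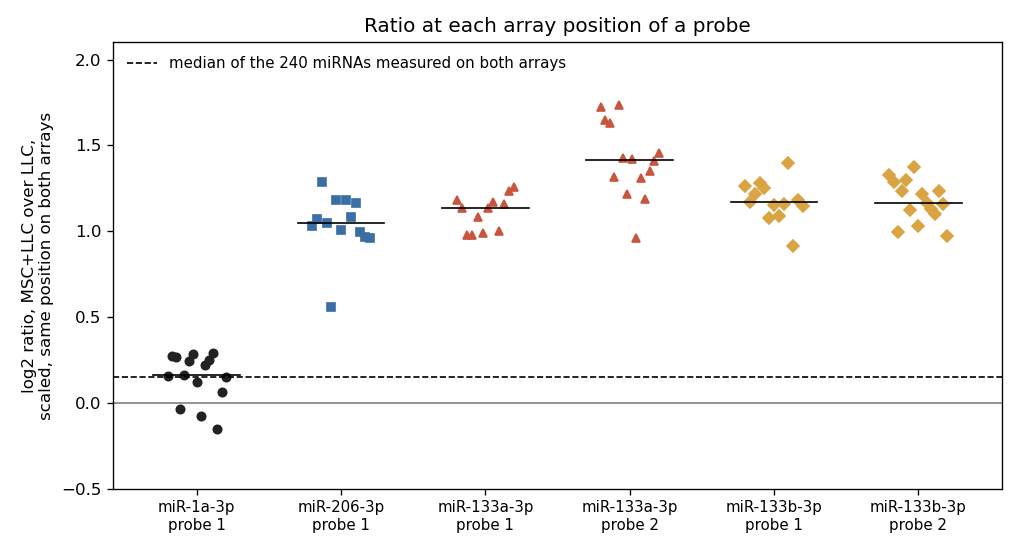
Scaled log2 ratio of MSC+LLC over LLC (vertical axis) at each array position of the 6 muscle probes detected on both arrays, with the median of the positions as a black bar and the median of the 240 measured miRNAs (0.15) as a dashed line. Positions of miR-1a-3p scatter around the dashed line between -0.15 and 0.29, and those of miR-206, miR-133a and miR-133b all lie at 0.56 or above.

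MiR-499-5p, from the gene Myh7b, was detected on the LLC array by both probes. The brighter ran from 41.5 to 67.1 with a median of 52.8, and the mean was 52.0 ± 7.91 (SD over 14 spots). The other had a mean of 42.3 ± 7.62 (SD over 14 spots). In the MSC+LLC group the probes gave 4.85 ± 3.72 and 4.97 ± 3.61 (SD over 15 spots each), and no spot was well above background. Negative control spots of that array had a mean of 3.70 ± 3.43 (SD over 965 spots). With the 75th percentile scaling no bound on its change can be given, because the lowest probe detected on the MSC+LLC array was, once scaled, brighter than miR-499-5p on the LLC array. Before scaling, miR-499-5p was at least 2.76-fold lower by the brighter probe and at least 2.25-fold lower by the other. With the mean of all spike-ins these bounds were at least 1.78-fold and 1.44-fold, and with the hybridization spike-ins alone at least 2.84-fold and 2.31-fold. With the labelling spike-ins alone the brighter probe gave at least 1.11-fold and the other no bound, and neither the all-probe 75th percentile nor the median gave a bound for either probe.

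MiR-208a-3p, the heart arm from Myh6, gave no signal above background on either array. Its probes averaged -2.32 ± 2.48 (SD over 15 spots) and -3.10 ± 2.36 (SD over 14 spots) for LLC, and -2.85 ± 4.12 and -0.83 ± 3.01 (SD over 15 spots each) for MSC+LLC. The negative control spots of the LLC array had a mean of 2.09 ± 3.82 (SD over 986 spots). Of all 1881 miRNAs, 72.4% were detected on neither array. No probe with a mean below 20.9 intensity units for LLC or 18.8 for MSC+LLC passed the detection rule. A lower level could thus not be called detected here.

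Most other arms and paralogues of these miRNAs were detected on neither array, as were 72.4% of all 1881 miRNAs. The count below is thus near the background and is not a result about these arms. The list held 11 entries (the 5p arms of miR-1a-1, miR-1a-2, miR-133a, miR-133b, miR-206, miR-208a and miR-208b, the 3p arms of miR-499 and miR-208b, and both arms of miR-1b), and 9 were detected on neither array. Of these, miR-499-3p lay above the negative controls of the LLC array without passing the detection rule. Its probes averaged 17.7 ± 3.66 and 17.3 ± 5.53 (SD over 15 spots each), with 1 and 3 spots well above background. MiR-133a-5p was detected by 1 of its 2 probes on the LLC array, at 86.1 ± 5.87 (SD over 14 spots). For MSC+LLC it averaged 9.48 ± 3.33 (SD over 15 spots), and none of these was well above background. The exception on both arrays was miR-208a-5p. Its brighter probe averaged 461 ± 52.3 for LLC (SD over 14 spots). For MSC+LLC it averaged 53.7 ± 8.11 (SD over 15 spots), and all kept spots were well above background in both cases. The scaled log2 ratio of miR-208a-5p was 0.42 with a spot-to-spot SD of 0.27. The 5p arm thus had signal where the 3p arm of the same precursor, the arm known from heart, had none. The printed 5p sequence is 54.5% G and C, and the 3p sequence 36.4%. What part base composition had in this was not tested.

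Other miRNAs with known roles in muscle, which many tissues also make, were looked at as well. Of 12 listed, 11 were on the array under the listed name and 10 were measured on both arrays. Of these, 3 were at least 2-fold higher after scaling, 1 was at least 2-fold lower and 6 lay within 2-fold, with a median log2 ratio of 0.23. Among all 240 measured miRNAs, 27.1% were higher and 11.2% lower by this threshold. The split is thus near the background and is not a result about this list. The 3 higher were miR-222-3p at 1.75 (spot-to-spot SD 0.25), which targets the cell cycle inhibitor p27, miR-378a-3p at 1.74 (SD 0.16), hosted by the metabolic coactivator gene Ppargc1b, and miR-486a-5p at 1.66 (SD 0.21), abundant in both muscle and red cells. MiR-29b-3p, known for repressing collagens, was at -1.06 (SD 0.32). MiR-23a-3p at 0.28, miR-24-3p at -0.06, miR-26a-5p at -0.18, miR-27b-3p at 0.10, miR-214-3p at 0.82 and miR-221-3p at 0.19 lay in between. MiR-181a-5p was detected on neither array.

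Markers of other cells that shed RNA into blood were set beside the muscle miRNAs. With the signal of all probes of a miRNA summed by the scanner software and added over a list, the 6 muscle miRNAs totalled 3266 for LLC and 477 for MSC+LLC, 6.85-fold dimmer. The 4 red cell miRNAs came to 43335 and 5960.14, 7.27-fold dimmer, with scaled log2 ratios of 1.66 for miR-486a-5p, 1.06 for miR-451a, and -2.33 for both arms of miR-144. The 3 liver miRNAs came to 1903 and 126, 15.1-fold dimmer, with miR-122-5p at 0.78, miR-192-5p at -0.32 and miR-194-5p detected on the LLC array only. The leukocyte and platelet markers, of which 2 of 4 were on the array under the listed name, came to 6785 and 543, 12.5-fold dimmer, with miR-223-3p at 0.14 and miR-150-5p detected on the LLC array only. The 4 smooth muscle and stromal miRNAs came to 452 and 41.8, 10.8-fold dimmer, with miR-214-3p at 0.82 and miR-199a-3p at 0.57. Of that list miR-143-3p was seen on the LLC array alone, and miR-145a-5p, a smooth muscle marker, on neither. A summed signal follows the brightest members, and in the red cell list miR-451a made up 33948 of the LLC sum and 5054 of the MSC+LLC sum. In the muscle list miR-133b-3p made up 1999 of the LLC sum and 310 of the MSC+LLC sum, and miR-133a-3p 855 and 133. The fold of the muscle sum thus mostly follows these 2 miRNAs, whose probes may not tell them apart. By median log2 ratio the red cell list was at -0.63, below the other lists, so the sum and the median of that list run opposite ways. Each list rests on 1 array per group, and no difference between lists was tested. What part muscle or red cells had in these values was not tested.

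**Figure D3:**
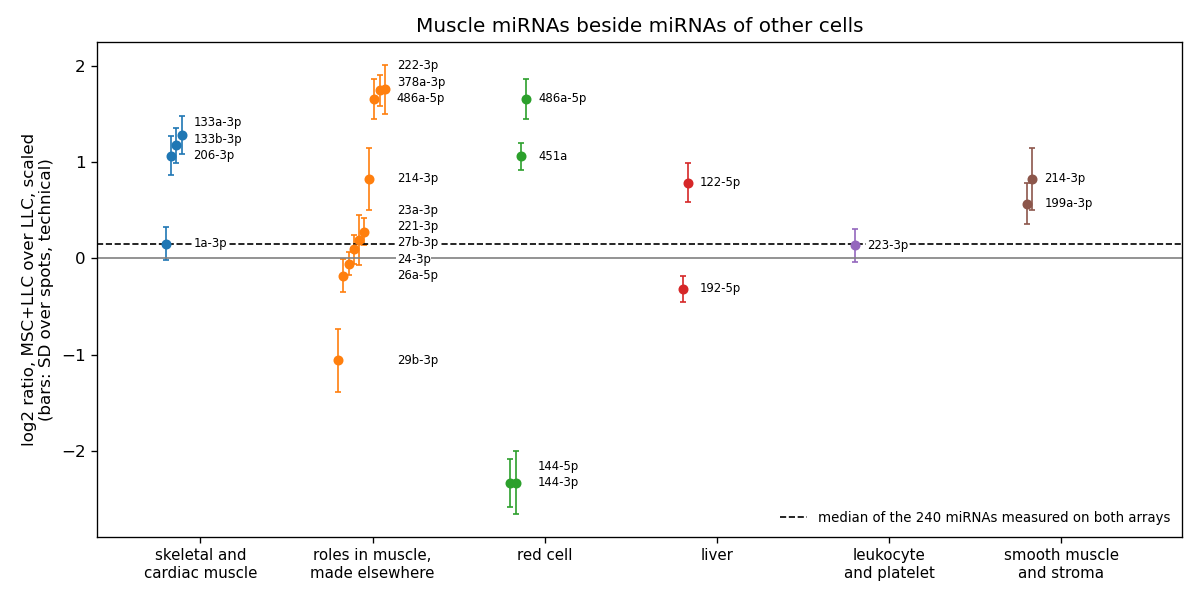
Scaled log2 ratio of MSC+LLC over LLC (vertical axis) for each miRNA measured on both arrays, by list, with bars for the technical SD over spots and the median of the 240 measured miRNAs (0.15) as a dashed line. MiR-133a-3p, miR-133b-3p and miR-206-3p lie between 1.07 and 1.28 and miR-1a-3p lies on the dashed line, while the red cell list spreads from -2.33 to 1.66.

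Across these 2 arrays, the miRNAs with at least 2 probes whose ratio was closest to the members' median of 1.12 were miR-1897-5p (1.13), miR-451a (1.06, with its probes at 0.77 and 1.35) and miR-296-5p (1.21). Likeness here is the distance between log2 ratios over 2 arrays.

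The direction of each muscle miRNA depended on the scaling. With the 75th percentile of all probes, which moved the median ratio of all 240 miRNAs by -1.21, miR-133a-3p was at 0.066, miR-133b-3p at -0.041, miR-206-3p at -0.15 and miR-1a-3p at -1.06. With that scaling 1 member was at least 2-fold lower, beside 52.9% of the 240 miRNAs. None was at least 2-fold higher, beside 11.2% of the 240. With the labelling spike-ins, which moved the median by -2.21, the 4 members lay between -2.06 for miR-1a-3p and -0.93 for miR-133a-3p. Without scaling they were at -3.37 for miR-1a-3p, -2.46 for miR-206-3p, -2.35 for miR-133b-3p and -2.25 for miR-133a-3p.

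**Figure D4:**
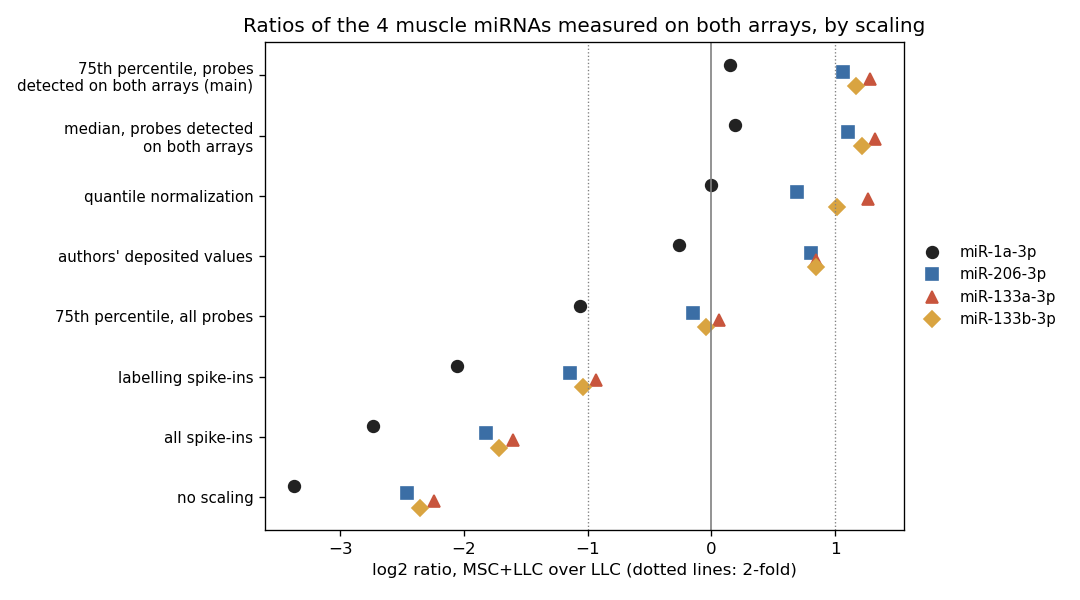
Log2 ratio of MSC+LLC over LLC (horizontal axis) of the 4 muscle miRNAs measured on both arrays under 8 ways of setting the arrays against each other (vertical axis), with dotted lines at 2-fold. The points move from above 0 to below 0 down the plot, and miR-1a-3p is the lowest of the 4 in each row. Except for quantile normalization and the authors' deposited values, each row uses a constant per array on the same ratios, which cannot change which member is lowest. The deposited values rest on the summed signal of each miRNA instead.

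In the log2 values that the authors deposited, miR-133a-3p was 2.72 in the LLC group and 3.57 in the MSC+LLC group, a difference of 0.85. MiR-133b-3p went from 3.95 to 4.80, also 0.85 higher, and miR-206-3p from -0.75 to 0.06, 0.81 higher. MiR-1a-3p went from 1.25 to 0.99, a difference of -0.26, so its sign was opposite to that of the main scaling. For the other two members the deposited values rest in part on a summed signal of 0.1, the lowest value of the scanner software. MiR-499-5p went from -2.37 to -6.80, a difference of -4.43 that comes from the value of 0.1 on the MSC+LLC array. MiR-208a-3p was listed at -10.34 and -6.80, a difference of 3.54, although neither array detected it.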

How the data were processed

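Exosomal RNA of 1 LLC and 1 MSC+LLC sample was hybridised to Agilent mouse miRNA arrays with 1 colour (Cy3). Per the file headers, the authors used Feature Extraction 11.5.1.1 (the submitters' processing notes name 10.7). The deposited scanner files hold background-subtracted, detrended intensity with no scaling between arrays, and flags per spot. The deposited series table holds log2 values, made by the authors with GeneSpring GX 11.0, that equal log2 of the summed signal minus a constant per array.

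Control and outlier spots were left out (3.04% and 2.95% of miRNA spots). Kept spots of a probe were averaged, arrays were divided by the 75th percentile of probes detected on both, and probe log2 ratios were averaged per miRNA. The SD of a ratio combines the spot SDs of both arrays. A bound sets a signal against the lowest detected probe of the other array. The number of arrays limits precision. The miRNAs and lists were chosen with earlier results of these data known: the 6 members, their other arms and paralogues, miRNAs with roles in muscle, markers of other cells, and the 3 miRNAs with the ratio closest to the members' median. The summary and detection steps were tested on simulated data, with a fixed signal cutoff in place of the scanner's flag and no outlier spots. The scale error was subtracted before the check, so the scaling and the removal of outlier spots were not tested. RefSeq coordinates are GRCm38.p6, while the headers name mm9 and the files give no coordinates. Alternatives covered scaling, summary of spots and probes, detection and fold threshold. Software was Python 3.11.15, numpy 2.4.6, pandas 2.3.3, scipy 1.17.1, matplotlib 3.10.9, R 4.3.3 and limma 3.58.1.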

Additional observations from a re-analysis of the deposited data

How the results depend on the processing

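No paired analysis was possible because only 1 array stands for each group. No result has a replicate check, and the signal over background of the dimmer array limits what can be seen to fall. The main results were 3 members at least 2-fold higher, 0 lower, and a median log2 ratio of 1.12. Scalings that add a constant moved these by construction. With the 75th percentile of all probes 0 were higher and 1 lower, the median was -0.095, miR-133b-3p was at -0.041 and miR-206-3p at -0.15. With the labelling spike-ins 0 were higher and 3 lower, the median was -1.09, and miR-133a-3p, miR-133b-3p and miR-206-3p were at -0.93, -1.04 and -1.14. With all spike-ins 0 were higher and 4 lower, the median was -1.77, and these were at -1.61, -1.71 and -1.82. With the hybridization spike-ins 0 were higher and 4 lower, the median was -2.44, and these were at -2.28, -2.39 and -2.50. Without scaling 0 were higher and 4 lower, the median was -2.41, and these were at -2.25, -2.35 and -2.46. Most of the 240 measured miRNAs were lower by 2-fold or more as well, 180 with the labelling spike-ins and 204 with all spike-ins. The hybridization spike-ins and no scaling gave 217 each. The counts of lower members with the spike-ins or without scaling are thus near the background and are not a result about the muscle miRNAs. Quantile normalization gave 2 higher and 0 lower, with a median of 0.85 and miR-206-3p at 0.69, no longer 2-fold higher. With it, 59 of the 240 miRNAs were higher by 2-fold or more, and 41 were lower. The authors' values gave 0 higher and a median of 0.83, and a threshold of 4-fold gave 0 higher. For these counts the share of all miRNAs past the same fold is not given here. They are thus not read as a result about the muscle miRNAs. Normexp background correction (offset 50) lowered the share of miRNAs with a lower ratio to 39.2% for miR-1a-3p, 70.0% for miR-133a-3p and 60.8% for miR-133b-3p, and raised it from 73.3% to 78.8% for miR-206-3p, whose log2 ratio moved from 1.07 to 1.79. The cause of the changes under quantile normalization and normexp was not tested. The members detected, 5 and 4, were the same number under each detection rule tried. Of all 1881 miRNAs, 454 (LLC) and 215 (MSC+LLC) were detected when all kept spots had to be well above background. A limit of at least 25% of kept spots gave 532 and 276, and the scanner software's gene detection flag gave 596 and 311. Ratios from array rows up to the middle alone and beyond it alone, a split chosen after the data were seen, were 1.24 and 1.30 for miR-133a-3p, 1.16 and 1.20 for miR-133b-3p, 1.03 and 1.11 for miR-206-3p, and 0.14 and 0.08 for miR-1a-3p.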
